A study of Mus musculus with 2 samples.

Results

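Motile cilia of the airway and the transport machinery that builds cilia were followed through the cells of newborn mouse lung by means of 49 genes. The genes were taken by name from the 27254 gene symbols of the deposited tables. They comprised the axonemal dyneins (Dnah, Dnaic and Dnal genes), the dynein assembly factors (Dnaaf genes), the radial spoke proteins (Rsph genes), the tektins (Tekt genes), the intraflagellar transport proteins (Ift genes) and Foxj1. Of the 49 genes, 35 were motile cilium genes and 13 were intraflagellar transport genes. No measured value entered the match by name, but the names to match were chosen with earlier results of these data known.

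A motile cilium beats because dynein arms fixed to its microtubule doublets slide the doublets past each other. Radial spokes pass signals from the central pair of microtubules to the arms, tektins are filaments inside the doublets, and Foxj1 is the transcription factor known to switch on these genes in multiciliated airway cells. Intraflagellar transport moves cargo along the axoneme as complex B towards the tip and complex A back to the base. It is used by motile cilia and also by the single primary cilium that many other cell types carry.

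Whole lungs of wild-type C57BL/6J mice were dissociated at postnatal day 1 (PND1) and captured by Drop-seq, a droplet method that counts the 3′ ends of transcripts with unique molecular identifiers (UMIs). Each of the 2 batches was 1 female mouse, and there was no treatment or second genotype. Cells with mitochondrial UMIs at or below 10% and at least 500 detected genes were kept, which left 2388 cells and 4432553 UMIs in Batch 1 and 5615 cells and 18232639 UMIs in Batch 2. The median cell held 1386.5 UMIs in Batch 1 and 2014 in Batch 2, and no barcode was shared between the batches.

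Cells were clustered without the 49 genes and without 3 lists of other ciliary genes, and the clusters were named from marker genes. Ciliated-like cells numbered 7 in Batch 1 and 31 in Batch 2. Their leading genes were Dynlrb2, Ccdc153 and Tmem212, and all 3 are markers of ciliated cells. The other airway cells fell into 2 clusters. One was led by the secretory genes Scgb3a2, Scgb1a1 and Cyp2f2 and held 4 and 33 cells; it is called secretory-like. The second was led by Scgb1a1, Scgb3a2 and Cyp2f2 together with Dynlrb2 and had all 18 ciliated markers and 14 airway markers raised. It held 2 and 56 cells and is called the mixed airway cluster. The remaining 7870 cells were mostly mesenchymal, endothelial, alveolar epithelial and immune. The marker genes and the clusters come from the same cells as the values below, and markers of ciliated cells helped to form the ciliated-like cluster. A test between the classes therefore asks whether the 49 genes followed other genes of the same cells, in 2 mice.

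The ciliated markers, summed, took 222 of every 10000 UMIs in ciliated-like cells of Batch 1 and 175 in Batch 2, 153 and 70.0 in mixed airway cells, 38.9 and 22.6 in secretory-like cells and 2.73 and 2.96 in remaining cells. In secretory-like cells only 2 of the 18 markers had a UMI in Batch 1 and 5 in Batch 2. In ciliated-like cells 17 and 18 had one. The 17 secretory and other airway markers took 44.7 and 59.8 in ciliated-like cells, 1475 and 676 in mixed airway cells, 2515 and 1333 in secretory-like cells and 3.41 and 8.58 in remaining cells. Both marker lists were thus high in the mixed cluster. Scrublet, a caller of droplets with more than 1 cell, marked 118 cells of Batch 2 and 13 of Batch 1, and 0 of these were airway cells. It compares cells with simulated random pairs of cells. Such pairs seldom join ciliated-like with secretory-like cells, which numbered 31 and 33 of 5615 in Batch 2. Whether mixed cells hold more than 1 cell was thus not tested. The median mixed cell held 12912 UMIs and the deepest 114913, against 4880.5 in the median ciliated-like cell and 4728 in the median secretory-like cell. The part of cell depth in the values of the mixed cluster was not tested beyond the thinned values below.

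Cell barcodes also set the mixed cluster apart. Of the 56 mixed cells of Batch 2, 13 had a barcode 1 base away from that of a cell at least 10 times deeper, and those 13 were all such cells of the whole batch. The deeper cell lay in the mixed cluster each time, and no ciliated-like or secretory-like cell had such a partner. The clearest family is printed with the base that differs from the deepest barcode in capitals, beside the UMI count of each barcode. Its deepest cell held 57589 UMIs and its shallow relatives 851, 733, 711, 701 and 653.
Deepest cell: tgggttcgtgaa
Relative with 851 UMIs: tgggttcCtgaa
Relative with 733 UMIs: tgggttcgtgCa
Relative with 711 UMIs: tgggttcgtCaa
Relative with 701 UMIs: tgggGtcgtgaa
Relative with 653 UMIs: tggCttcgtgaa
Whether such barcodes mark separate cells was not tested, and the main values of single mixed cells are also given without the 13 cells.

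Promoters were searched for the binding motif of RFX factors, which regulate ciliary genes. The X-box was searched as the half-sites GTNNCC and GGNAAC, 2 bases apart, on both strands of the 250 bases before to 50 after each RefSeq start in GRCm38.p6. A promoter was found for 40 of the 49 genes, and the motif lay in 2 of them (5%), Ift57 and Tekt4, against 403 of 27025 promoters of all genes (1.49%). The 2 windows are shown because they hold a match in 1 transport gene and 1 motile cilium gene, with the motif in capitals.
Ift57, chr16:49699199-49699228, plus strand: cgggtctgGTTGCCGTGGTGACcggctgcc
Tekt4, chr17:25471422-25471451, plus strand: ccccacctGTGTCCTGGGAAACaaactcat
The Ift57 match read on the minus strand and the Tekt4 match on the plus strand. The forkhead motif TGTTTAC lay in 2 of the 40 promoters (Dnah17 and Tekt3, 5%), against 1095 of all promoters (4.05%). Neither gene passed the count filter of the tests below, with 3 UMIs of Dnah17 and 0 of Tekt3 in airway cells. Neither motif's share was tested against that of all genes. A match is a run of letters, not a measured binding site. No promoter was at hand for Foxj1 or Rsph1 in the table used here.

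Motile cilium genes were high in ciliated-like and mixed airway cells and low elsewhere, and intraflagellar transport genes were raised in the same cells from a higher level in the rest of the lung. The 35 motile cilium genes together took 44.1 of every 10000 UMIs in the ciliated-like cells of the first mouse and 49.8 in those of the second, or 46.9 ± 4.02 (SD, n = 2 mice). They took 30.5 and 19.1 in mixed airway cells, 1.99 and 0.726 in secretory-like cells and 2.02 and 1.40 in remaining cells. Secretory-like cells lay at or below the cells outside the airway (0.987 and 0.517 times their share), and their Batch 1 value rests on so few UMIs that its Poisson 95% interval ran from 0.242 to 7.20.

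The 13 intraflagellar transport genes took 28.2 and 30.1 of every 10000 UMIs in ciliated-like cells (29.1 ± 1.35, SD, n = 2 mice). They took 21.4 and 14.4 in mixed airway cells, 1.99 and 2.99 in secretory-like cells and 4.27 and 3.68 in remaining cells. Ciliated-like cells thus held 21.8 times the remaining cells' share of motile cilium UMIs in Batch 1 and 35.5 times in Batch 2, but 6.60 and 8.17 times their share of transport UMIs. The summed motile genes exceeded the summed transport genes 1.56-fold and 1.65-fold in ciliated-like cells and 1.42-fold and 1.32-fold in mixed airway cells. In remaining cells the order turned, and the ratio was 0.474 and 0.381.

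**Figure D1:**
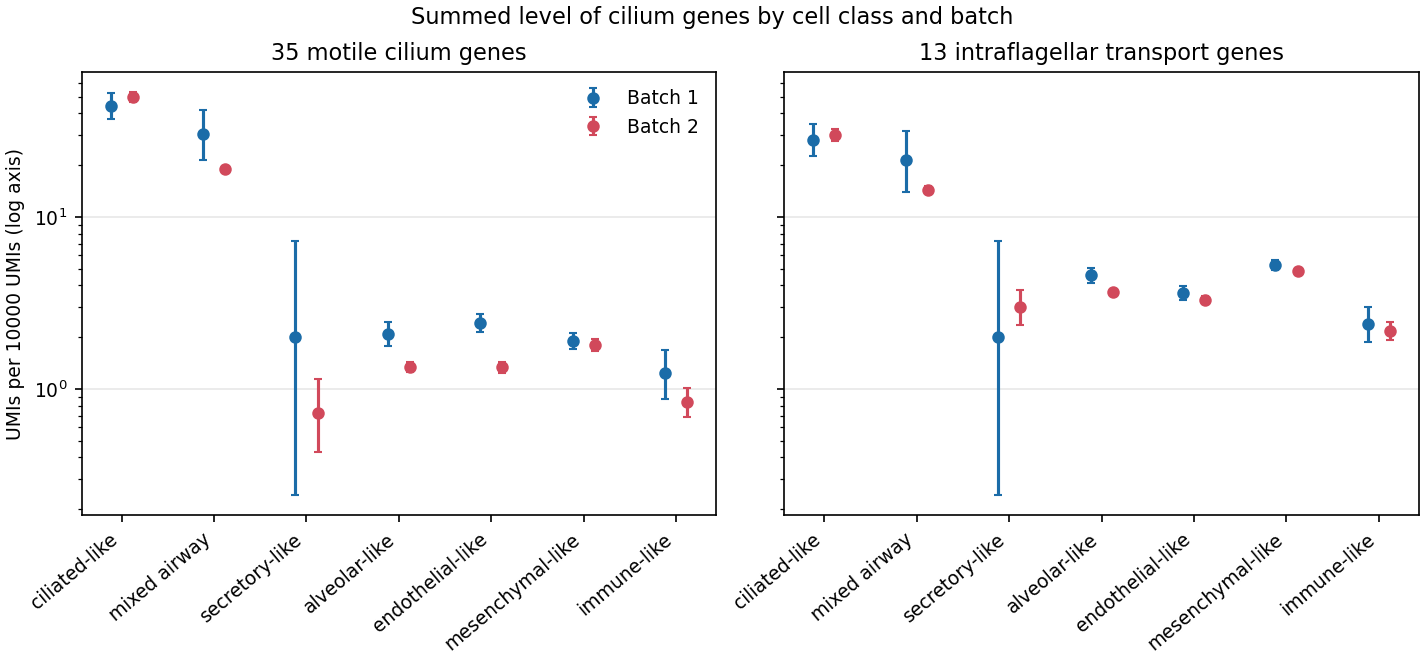
Summed UMIs of the 35 motile cilium genes (left) and the 13 intraflagellar transport genes (right) per 10000 UMIs, on a log axis, by cell class, with 1 point for each batch, that is, for each mouse, and Poisson 95% intervals as bars. The motile genes lie at 44.1 and 49.8 in ciliated-like cells and at or below 2.42 in the 5 classes from secretory-like to immune, where the transport genes lie between 1.99 and 5.26.

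The airway cells held 1.18% of all UMIs of Batch 1 and 9.15% of Batch 2. They held 90.5% and 97.4% of the Foxj1 UMIs, 16.3% and 58.9% of the motile cilium UMIs and 5.70% and 28.5% of the transport UMIs. In each mouse the share fell from Foxj1 to the motile cilium genes to the transport genes.

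Foxj1 (chromosome 11, 116330704 to 116335399, minus strand) was high in both clusters with ciliated markers. Levels of single genes are given as UMIs of the gene over all UMIs of the class in CPM, first for Batch 1 and then for Batch 2, and are not to be compared between genes. Foxj1 was counted at 1060 and 1080 CPM in ciliated-like cells. The level was 495 and 471 in mixed airway cells, 0 and 4.03 in secretory-like cells and 0.913 and 1.27 in remaining cells. The ciliated-like and mixed classes did not overlap with the other classes in either mouse. Foxj1 was higher in ciliated-like cells than in the mean of the 4 remaining classes by 9.09 ± 0.36 on the log2 scale (adjusted p = 6.2e-134, edgeR quasi-likelihood test with Benjamini-Hochberg adjustment). A Foxj1 UMI was found in 36 of 38 ciliated-like cells (94.7%, Wilson 95% interval 82.7 to 98.5) and in 43 of 58 mixed airway cells (74.1%, 61.6 to 83.7), or 39 of the 45 without a deep barcode neighbour. It was found in 1 of 37 secretory-like cells (2.70%, 0.479 to 13.8) and in 8 of 2156 endothelial cells (0.371%) (medians of 4880.5 UMIs in ciliated-like and 1729.5 in endothelial cells). Endothelial cells lack motile cilia and serve as the background. With each cell thinned to 1000 UMIs the Foxj1 shares were 62.2% of 37 ciliated-like, 18.2% of 44 mixed, 2.78% of 36 secretory-like and 0.0738% of 6779 remaining cells. The secretory-like share rests on 1 cell.

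In the comparison of ciliated-like cells with the mean of the 4 remaining classes, 12.6% of the 12540 genes tested were called higher and 12% lower. Of the 44 cilium genes tested, 40 were higher and 0 lower. The motile genes higher were 28 of 30 tested, with a median log2 difference of 5.40, and the transport genes higher were 11 of 13, with a median of 3.00. The median over all genes tested was -0.51. DESeq2 gave 67.0% of its calls as higher against 51.2% here, and the motile and transport counts were the same. The range was 0.77 to 9.07 over the motile genes and 0.09 to 3.66 over the transport genes, so that the transport gene with the greatest difference, Ift81, lay below the motile median. A gene can pass the count filter before the test through the classes where it is high. Without that filter, 28 of 34 motile and 11 of 13 transport genes tested were higher.

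**Figure D2:**
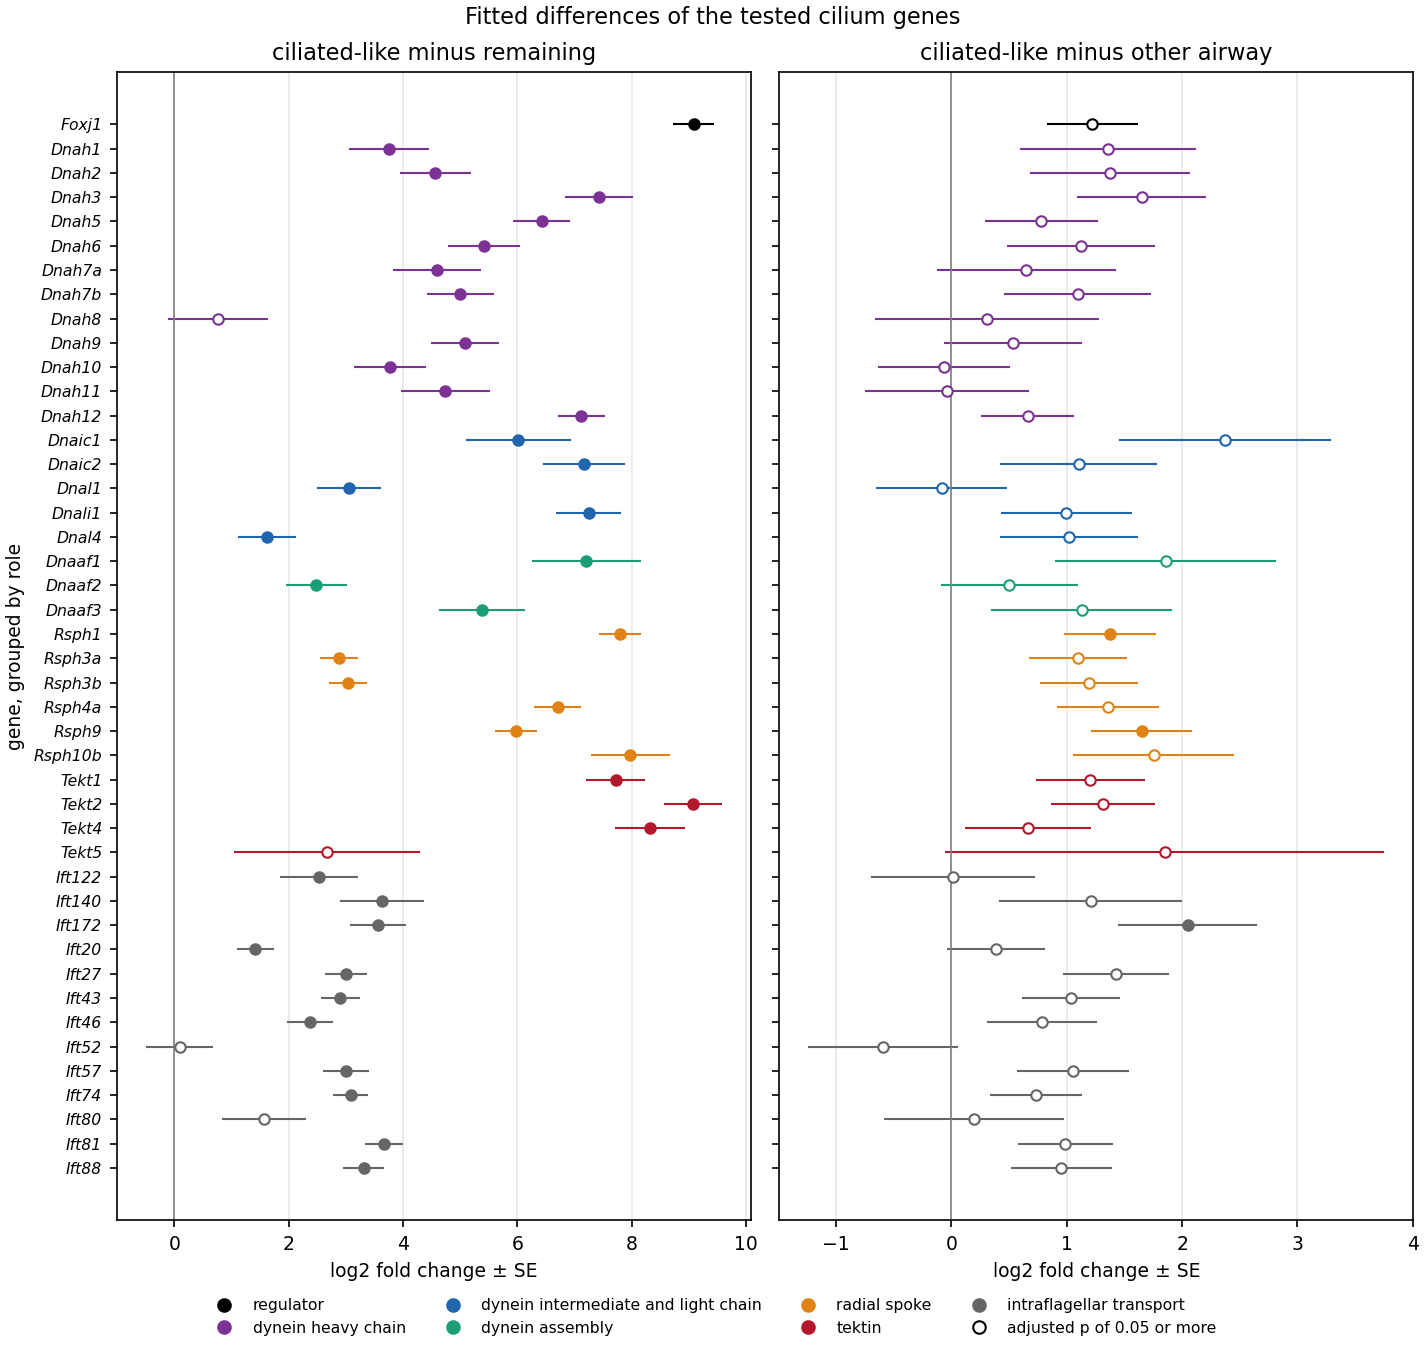
Log2 difference between ciliated-like cells and the mean of the 4 remaining classes (left) or the pooled other airway cells (right) for each cilium gene tested, coloured by role. Bars are standard errors worked back from the log2 difference and the F value of the edgeR test. Open points mark an adjusted p of 0.05 or more. On the left the motile cilium genes range from 0.77 (Dnah8) to 9.07 (Tekt2), the transport genes from 0.09 (Ift52) to 3.66 (Ift81), and Foxj1 is at 9.09. On the right 3 points are filled: Rsph1, Rsph9 and Ift172.

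The dynein heavy chains are the motors of the outer and inner arms. Of 12 heavy chain genes tested, 11 were higher in ciliated-like cells (median log2 difference 4.87). Dnah12, an inner arm heavy chain, was at 166 and 394 CPM in ciliated-like cells. It was at 330 and 184 in mixed airway cells, 0 and 0 in secretory-like cells and 3.65 and 1.33 in remaining cells. It was higher in ciliated-like than in remaining cells by 7.12 ± 0.41 on the log2 scale. Dnah5, an outer arm heavy chain whose loss causes primary ciliary dyskinesia, was at 166 and 182 CPM in ciliated-like, 330 and 72.9 in mixed, 0 and 4.03 in secretory-like and 3.42 and 1.15 in remaining cells. Its log2 difference was 6.43 ± 0.50. For both genes all ciliated-like and mixed values stood above all others, but in Batch 1 they rest on 5 UMIs of each gene in ciliated-like and 4 in mixed cells.

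Dnah10, an inner arm heavy chain, was at 75.7 CPM in ciliated-like cells of Batch 2 and had no UMI in the 7 of Batch 1, which allows up to 99.4. Mixed airway cells held 0 and 52.4, secretory-like cells 0 and 0 and remaining cells 8.22 and 1.63. Its log2 difference of 3.78 ± 0.63 thus came from Batch 2, and without that mouse it was -2.78. The heavy chain Dnah8 (chromosome 17, 30624354 to 30877365) departed from the rest of its family. It was at 33.1 and 15.1 CPM in ciliated-like cells, from 1 and 3 UMIs, and at 29.0 and 9.78 in remaining cells. Its log2 difference of 0.77 ± 0.87 did not pass (adjusted p = 0.551). The heavy chains in sum took 0.808 of every 10000 UMIs in remaining cells of Batch 1 but 0.269 in those of Batch 2. The ciliated-like cells (9.94 and 14.0) did not share this difference. Each batch was 1 mouse, so mouse and batch cannot be told apart.

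Intermediate and light chains tether the heavy chains to the doublets and tune them. All 5 tested were higher in ciliated-like cells, with a median log2 difference of 6.02. Dnali1, an inner arm light intermediate chain, was at 431 and 101 CPM in ciliated-like cells, 330 and 51.6 in mixed, 0 and 0 in secretory-like and 0.685 and 0.543 in remaining cells. Dnaic2, an outer arm intermediate chain, was at 99.4 and 101 in ciliated-like, 82.4 and 36.8 in mixed, 0 and 0 in secretory-like and 1.37 and 0.241 in remaining cells. Dnali1 was higher by 7.25 ± 0.57 and Dnaic2 by 7.17 ± 0.71 on the log2 scale. The light chain genes Dnal1 and Dnal4 were also counted outside the airway. Dnal1 was at 99.4 and 75.7 CPM in ciliated-like, 247 and 67.1 in mixed, 0 and 8.07 in secretory-like and 7.99 and 8.45 in remaining cells (3.06 ± 0.56 on the log2 scale). Dnal4 was at 33.1 and 85.8 in ciliated-like, 82.4 and 31.9 in mixed, 0 and 0 in secretory-like and 19.9 and 18.0 in remaining cells. Its difference of 1.63 ± 0.51 passed the test with the least margin of the 5 (adjusted p = 0.00837).

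Dynein arms are assembled in the cytoplasm before they enter the cilium, and Dnaaf1, Dnaaf2 and Dnaaf3 are needed for that step. All 3 were higher in ciliated-like than in remaining cells. Dnaaf1 was at 33.1 and 70.6 CPM in ciliated-like, 82.4 and 14.7 in mixed, 0 and 0 in secretory-like and 0.228 and 0.302 in remaining cells, a log2 difference of 7.21 ± 0.95. Dnaaf3 was at 166 and 50.5 in ciliated-like, 0 and 22.9 in mixed, 0 and 4.03 in secretory-like and 2.51 and 0.543 in remaining cells (5.38 ± 0.76). Dnaaf2 was at 66.3 and 75.7 in ciliated-like, 82.4 and 41.8 in mixed, 0 and 0 in secretory-like and 11.2 and 6.76 in remaining cells (2.48 ± 0.54). Its difference was the smallest of the 3.

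All 6 radial spoke genes tested were higher in ciliated-like cells (median log2 difference 6.34). Rsph1 (chromosome 17, 31255019 to 31277383, minus strand), a protein of the spoke head, was at 762 and 530 CPM in ciliated-like cells, 330 and 198 in mixed, 0 and 8.07 in secretory-like and 1.60 and 1.45 in remaining cells. It was higher by 7.80 ± 0.36 on the log2 scale. In both mice ciliated-like cells stood above mixed cells, and both stood above secretory-like and remaining cells. Rsph1 was found in 29 of 38 ciliated-like cells (76.3%), 37 of 58 mixed cells (63.8%), 1 of 37 secretory-like cells (2.70%) and 28 of 7870 remaining cells (0.356%). Rsph3a and Rsph3b share 87.6% of the 50-base words in the last 1000 bases of their transcripts, and 562 of the 637 cells with a Rsph3a UMI also had one of Rsph3b. Their counts are uncertain for that reason. Rsph3a was at 99.4 and 429 CPM in ciliated-like, 82.4 and 144 in mixed, 99.7 (1 UMI) and 20.2 in secretory-like and 28.5 and 33.5 in remaining cells, and Rsph3b differed from remaining cells by 3.04 ± 0.33 against 2.88 ± 0.33 for Rsph3a. Without the pair, the motile cilium genes took 42.1 and 41.1 of every 10000 UMIs in ciliated-like cells and 1.46 and 0.755 in remaining cells, and secretory-like cells held 0 and 0.363.

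Tektins gave the largest differences of the motile roles, with 3 of 4 tested higher and a median of 8.02. Tekt2 was at 133 and 348 CPM in ciliated-like, 82.4 and 115 in mixed, 0 and 0 in secretory-like and 1.37 and 0.362 in remaining cells. Its log2 difference of 9.07 ± 0.51 was the greatest of the motile genes tested. Tekt4 was at 199 and 141 in ciliated-like, 330 and 68.0 in mixed, 0 and 4.03 in secretory-like and 0.457 and 0.181 in remaining cells (8.32 ± 0.62). Tekt1 was at 298 and 247 in ciliated-like, 0 and 120 in mixed, 0 and 0 in secretory-like and 2.28 and 3.08 in remaining cells (7.72 ± 0.52). Tekt5 rested on 2 UMIs in ciliated-like cells, and its difference of 2.67 ± 1.63 did not pass (adjusted p = 0.229).

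Intraflagellar transport genes were raised in ciliated-like cells from a level already present elsewhere. Ift74, which binds tubulin cargo with Ift81 in complex B, was at 497 and 580 CPM in ciliated-like, 412 and 299 in mixed, 0 and 28.2 in secretory-like and 48.6 and 44.6 in remaining cells. Ift81 was at 232 and 394 in ciliated-like, 247 and 147 in mixed, 0 and 16.1 in secretory-like and 31.0 and 19.3 in remaining cells. The log2 differences from remaining cells were 3.08 ± 0.31 for Ift74 and 3.66 ± 0.33 for Ift81. Ift27, a small GTPase of complex B, was at 298 and 212 CPM in ciliated-like, 82.4 and 72.1 in mixed, 0 and 0 in secretory-like and 24.7 and 17.3 in remaining cells (3.01 ± 0.37). Ift43, a complex A subunit, was at 464 and 313 in ciliated-like, 247 and 138 in mixed, 0 and 20.2 in secretory-like and 56.8 and 42.4 in remaining cells (2.90 ± 0.35). The ciliated-like values of both mice stood above those of the remaining cells for Ift74, Ift81, Ift27 and Ift43. The share of all genes with such an order, here or for the genes above, was not counted.

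Ift20, the complex B subunit that also works at the Golgi, was raised less than Ift74, Ift81, Ift27 and Ift43. It was at 365 and 651 CPM in ciliated-like, 412 and 377 in mixed, 0 and 198 in secretory-like and 156 and 145 in remaining cells. Its log2 difference from remaining cells was 1.41 ± 0.32 (adjusted p = 0.00014). Ift52, a complex B core subunit, was at 33.1 and 40.4 in ciliated-like, 82.4 and 49.9 in mixed, 0 and 4.03 in secretory-like and 26.7 and 22.7 in remaining cells. Its difference of 0.09 ± 0.59 did not pass (adjusted p = 0.946), nor did that of Ift80 (1.57 ± 0.74, adjusted p = 0.108). Both subunit classes were raised: 3 of 3 complex A genes (median log2 difference 2.90) and 8 of 10 complex B genes (median 3.00) were higher.

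**Figure D3:**
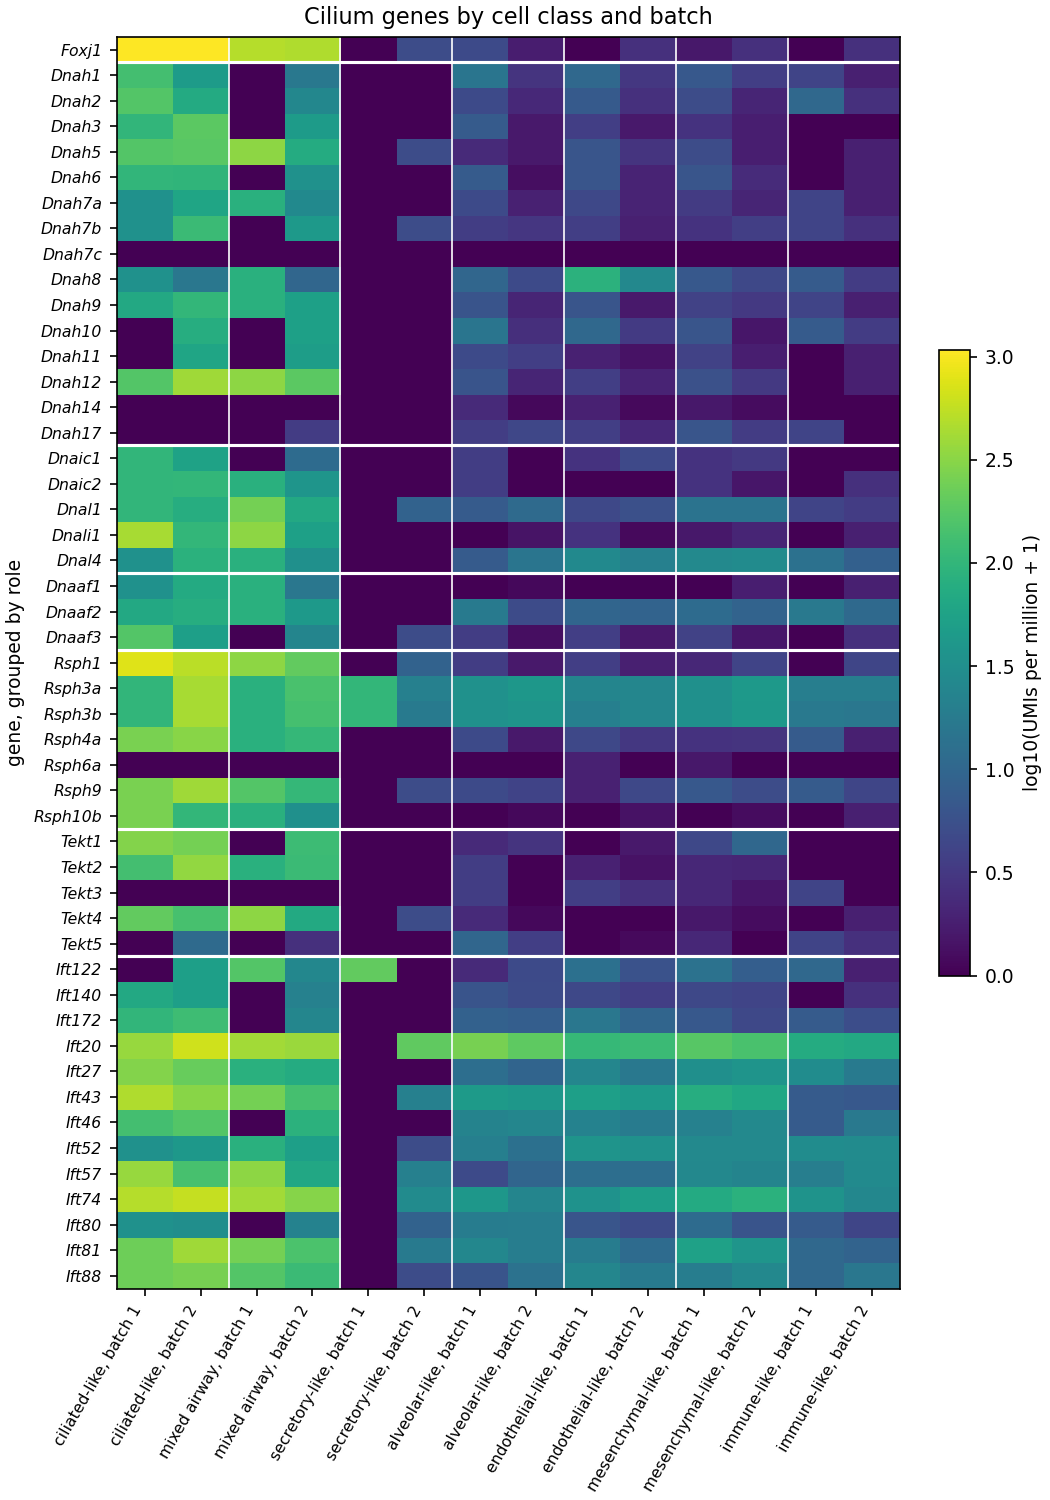
Levels of the 49 genes (rows, by role) in each cell class and batch (columns), coloured by log10(CPM + 1). Most dynein, radial spoke and tektin rows are high in the ciliated-like and mixed columns. Exceptions include Dnah8, which is highest in endothelial cells of Batch 1, and Dnah7c, Dnah14, Dnah17, Rsph6a and Tekt3, which have at most 3 UMIs in airway cells. By contrast, Ift20, Ift74, Ift43, Rsph3a, Rsph3b and Dnal4 are also counted in the classes outside the airway. Secretory-like cells of Batch 1 are dark in nearly all rows, and they hold 10028 UMIs in all.

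The remaining 5 genes did not pass the count filter of the test. Dnah14 had 6 UMIs and Dnah7c none in any kept cell, Rsph6a had 2 UMIs and Tekt3 had 20, and none of these lay in airway cells. Dnah17 had 60 UMIs, 3 of them in airway cells. Rsph6a and Tekt3 are best known from sperm. Dnah7a, Dnah7b and Dnah7c share 24.2% to 38.5% of their end words in pairs, so that the 0 of Dnah7c is uncertain.

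No cilium gene was called between ciliated-like and mixed airway cells. In the fit with the 2 other airway clusters kept apart, 0.101% of 11940 genes tested were called higher in ciliated-like than in mixed cells, and 0 of the 43 cilium genes tested were among them. At an unadjusted p under 0.05 the count was 13 of 43, all 13 higher in ciliated-like cells, beside 10.3% of all genes, and DESeq2 called 1 (Ift43). The log2 differences had a median of 0.90 over 29 motile genes and 0.74 over 13 transport genes, and 26 and 12 of them were positive. Foxj1 differed by 0.99 and was not called. With the 2 clusters pooled, 0.542% of genes were higher in ciliated-like cells. Rsph1 (1.38 ± 0.40, adjusted p = 0.0277), Rsph9 (1.65 ± 0.44) and Ift172 (2.05 ± 0.60) passed, and Foxj1 (1.22 ± 0.40) did not. Without the batch term 0 cilium genes passed in the pooled comparison (10 of 44 at an unadjusted p under 0.05, beside 8.21% of all genes). None passed with pooled remaining cells, at a 5% mitochondrial limit, after thinning or under a gate on ciliated markers either. The gate left 1 other airway cell with 1073 UMIs in Batch 1 and 11 cells in Batch 2. Among the cells that passed it, 251 were alveolar and 38 ciliated-like. Its lack of calls therefore says little about these genes. DESeq2 called 1 motile and 2 transport genes, Ift172 not among them, and DESeq2's size factors in edgeR gave 7 motile and 4 transport genes. Of all calls, 20.1% were higher in ciliated-like cells here and 38.0% with those size factors.

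Secretory-like cells had few UMIs of the motile cilium genes. In the comparison with ciliated-like cells, 5.73% of genes were called higher in ciliated-like cells, with 26 of 29 motile genes, 9 of 13 transport genes and Foxj1 (7.55 ± 0.94) among them. Of the 35 motile genes, 26 had no UMI in the 37 secretory-like cells, as had 4 of the 13 transport genes. The fold of such a gene is a lower bound against a floor of 3 UMIs over the group. Dnah12 was at least 31.2-fold higher in ciliated-like cells, Tekt2 at least 27.5-fold, Rsph4a at least 26.4-fold, Tekt1 at least 21.8-fold, Ift27 at least 19.2-fold and Ift46 at least 13.9-fold. With these genes at their bounds the median log2 difference was 3.23 over the motile genes and 3.35 over the transport genes. The fitted medians were 9.05 and 3.70. Dnah8, Dnaaf3 and Dnal1 among the motile genes and Ift20 (1.06 ± 0.56), Ift52, Ift80 and Ift122 among the transport genes did not pass. Without the batch term 20 motile and 8 transport genes passed, and by DESeq2 19 and 9. Foxj1 was also higher in mixed than in secretory-like cells (6.56 ± 0.99), as were 18 of 29 motile and 6 of 13 transport genes against 2.65% of all genes.

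Against the remaining classes, 0 of 43 cilium genes were called higher in secretory-like cells, where 4.77% of all genes were. At an unadjusted p under 0.05 there were 1 higher (Tekt4) and 4 lower (Dnal4, Ift27, Ift46 and Ift52) of the 43, beside 21.2% of all genes in either direction, and DESeq2 called 1 (Tekt4, from 1 UMI). In mixed airway cells 27 of 29 motile and 12 of 13 transport genes were, against 16.5% of all genes, and Foxj1 was higher by 8.09 ± 0.41. The pooled other airway class combined these clusters, with 27 of 30 motile and 12 of 13 transport genes called higher than in remaining cells, against 16% of all genes. When the 49 genes entered the clustering, most mixed cells joined the ciliated-like cluster and 0 motile genes were called higher in the other airway cells left.

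Single airway cells varied widely. The motile cilium genes took between 11.4 and 114 of every 10000 UMIs in the 38 ciliated-like cells, with a median of 46.0. They took 0 to 55.4 (median 18.7) in the 58 mixed cells and 0 to 21.2 (median 0) in the 37 secretory-like cells. The transport medians were 25.4, 14.6 and 1.60. The secretory gene Scgb1a1 ran the other way, with medians of 5.14, 569 and 1066 per 10000 UMIs. In 46 of the 58 mixed cells Scgb1a1 reached 100 and the motile genes 5 per 10000 UMIs, against 3 ciliated-like and 2 secretory-like cells. Leaving out the 13 cells with a deep barcode neighbour left 38 such cells of 45, with medians of 20.5 for the motile genes, 15.5 for the transport genes and 453 for Scgb1a1. A median ciliated-like cell held UMIs of 13 different motile genes, a mixed cell of 11.5 (15 without the 13 cells) and a secretory-like cell of 0.

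**Figure D4:**
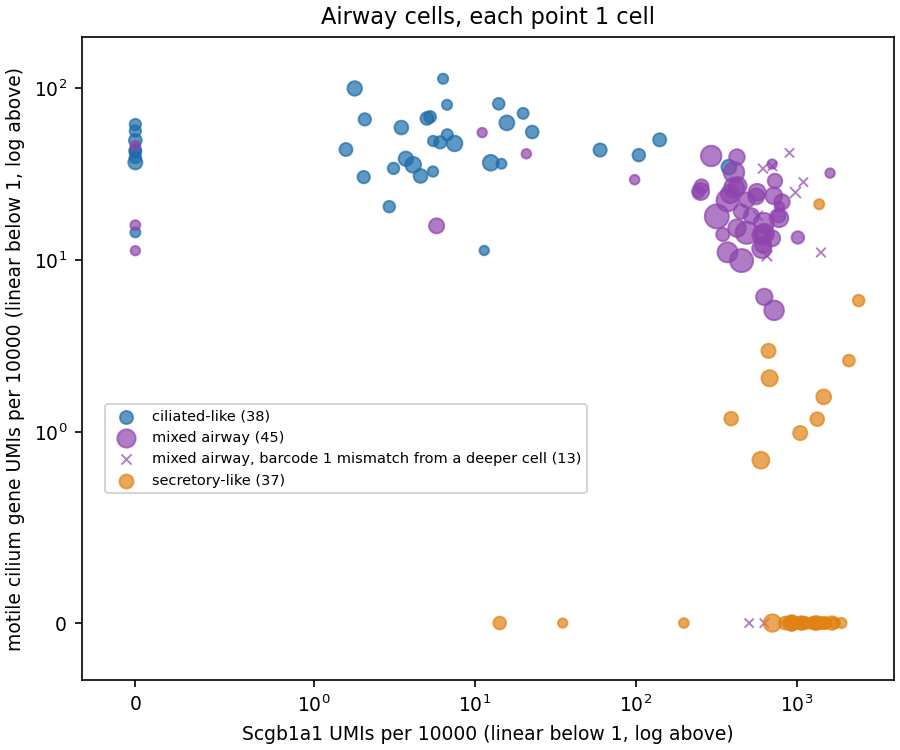
Motile cilium UMIs against Scgb1a1 UMIs, both per 10000 UMIs of the cell (axes linear below 1 and log above), for the airway cells of both batches, with 1 point per cell coloured by cluster, larger for deeper cells, and crosses for the 13 cells with a deep barcode neighbour. Ciliated-like cells lie between 11.4 and 114 on the motile axis, secretory-like cells lie mostly at 0, and 46 of the 58 mixed cells reach both 100 of Scgb1a1 and 5 of the motile genes.

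At an equal depth of 1000 UMIs, at least 1 motile UMI was found in 37 of 37 ciliated-like cells (100%), 36 of 44 mixed cells (81.8%), 3 of 36 secretory-like cells (8.33%) and 938 of 6779 remaining cells (13.8%). For the transport genes the shares were 89.2%, 72.7%, 25% and 30.4%. Cells too shallow to be thinned were 1 ciliated-like, 14 mixed, 1 secretory-like and 1091 remaining cells. The motile share was 15.5% in mesenchymal, 13.9% in alveolar, 13% in endothelial and 8.81% in immune cells. The transport share was 36.6% in mesenchymal, 30.2% in alveolar, 27.0% in endothelial and 17.5% in immune cells.

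Among the 4 remaining classes, 16 of the 44 cilium genes (36.4%) differed, beside 55.5% of all genes tested. They were 9 of 30 motile genes and 7 of 13 transport genes. In bulk sums of a class, fewer cells with a transcript and less transcript per cell cannot be told apart. The clearest was Dnah8 (adjusted p = 1.7e-17), at 86.9 and 24.8 CPM in endothelial cells. Dnah8 was at 8.95 and 3.84 in alveolar cells, 5.83 and 3.50 in mesenchymal cells and 6.34 and 2.49 in immune cells. Endothelial cells were highest in both mice, and all their values exceeded those of the other 3 classes. After thinning, a Dnah8 UMI was found in 70 of 1794 endothelial cells (3.90%). The share over all remaining cells, with the endothelial cells included, was 1.30%.

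Tekt1 and Tekt5 differed among these classes at low levels. Tekt1 was highest in mesenchymal cells, at 3.50 and 9.42 CPM (adjusted p = 3.5e-07), and Tekt5 in alveolar cells, at 8.95 and 2.61 (adjusted p = 7.5e-04). Dnal4 was at 26.3 and 19.8 in endothelial, 25.7 and 27.7 in mesenchymal, 6.40 and 14.0 in alveolar and 12.7 and 7.47 in immune cells (adjusted p = 0.0326). Foxj1 did not pass (adjusted p = 1).

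The transport genes did not share 1 order among the classes. Ift20 was highest in alveolar epithelial cells, at 256 and 188 CPM. It was at 173 and 144 in mesenchymal, 108 and 115 in endothelial and 72.9 and 67.2 in immune cells (adjusted p = 4.6e-05), and this order was the same in both mice. Ift43 was at 76.4 and 62.7 in mesenchymal cells but 6.34 and 5.81 in immune cells (adjusted p = 7.9e-08). Ift74 and Ift81 were at 70.0 and 85.6 and at 53.1 and 37.4 in mesenchymal cells (adjusted p = 0.00255 and 1.8e-06). Ift80 was at 17.9 and 18.1 in alveolar cells (adjusted p = 5.1e-06), whereas Ift52 did not pass (adjusted p = 0.126). In sum, mesenchymal cells held 5.26 and 4.84 transport UMIs per 10000, alveolar cells 4.57 and 3.68, endothelial cells 3.63 and 3.30 and immune cells 2.38 and 2.18.

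**Figure D5:**
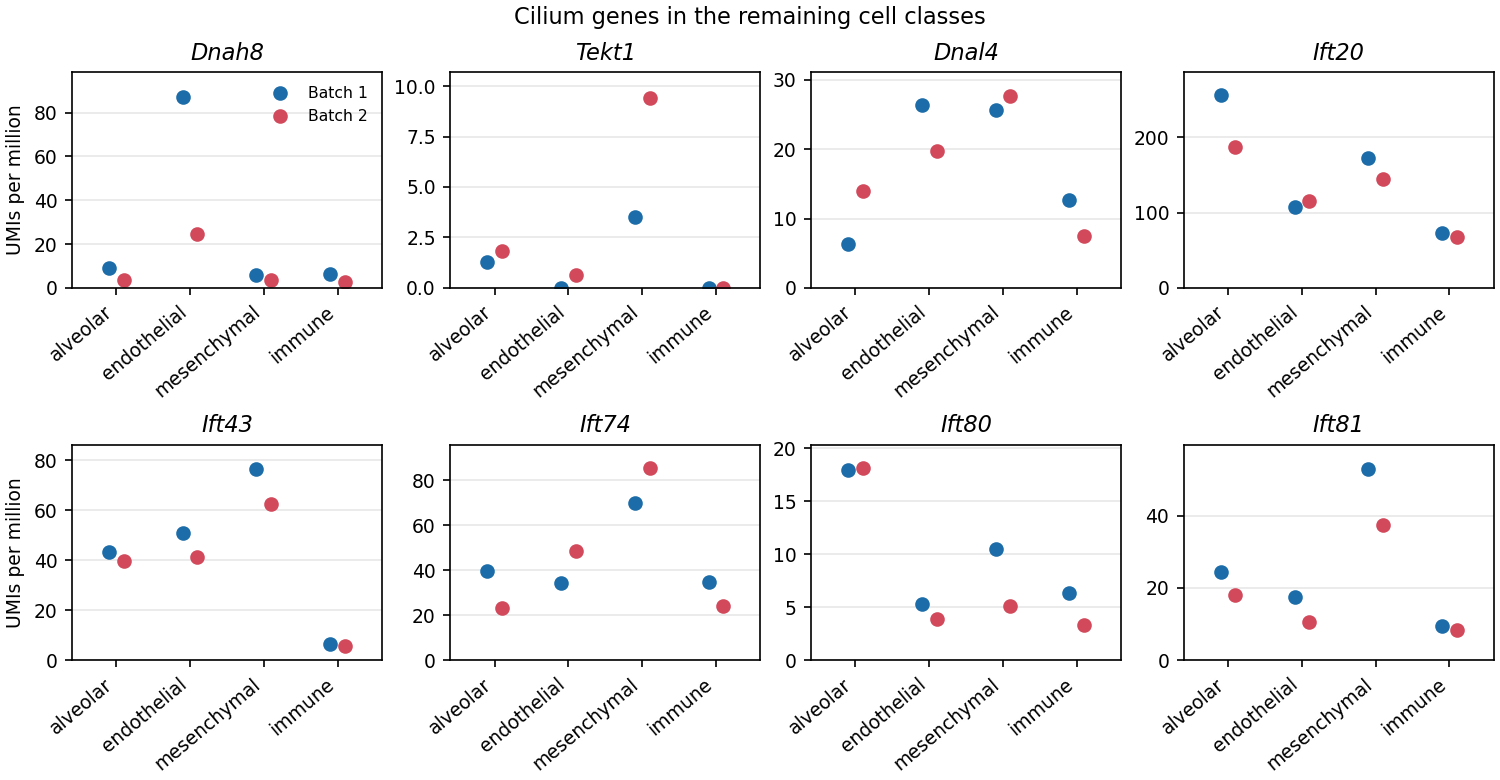
CPM of 8 cilium genes in alveolar epithelial, endothelial, mesenchymal and immune cells, with 1 point for each batch. Dnah8 stands highest in endothelial cells (86.9 and 24.8), Ift20 in alveolar cells (256 and 188) and Ift43 in mesenchymal cells (76.4 and 62.7).

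Other ciliary genes, from 3 lists that were kept out of the clustering, were also taken. Of 44 other motile axoneme genes tested, 44 were higher in ciliated-like than in remaining cells, with a median log2 difference of 6.81. The share called higher over all genes tested was 12.6%. Ccdc39, the ruler that sets the spacing of inner arms and spokes, differed by 6.72 ± 0.31, whereas the tubulins Tubb4b (3.45 ± 0.29) and Tuba1a (2.02 ± 0.30), which other cells also use, differed less. Of 29 other transport and BBSome genes (the BBSome is a cargo adaptor), 25 were higher, with a median of 3.26. Wdr60, a chain of the retrograde motor, differed by 3.39 ± 0.31, the kinesin motor gene Kif3a by 2.25 ± 0.34 and its partner Kifap3 by 1.76 ± 0.37. Of the 16 regulators of ciliogenesis tested, 10 were higher (median 4.67). Mcidas, Myb and Trp73, which act early in multiciliated cells, differed by 7.27, 6.86 and 6.15, and Rfx2 and Rfx3 by 4.95 and 1.96. Of the 3 most counted regulators, Cep63 (0.74 ± 0.48), E2f4 (-0.38 ± 0.67) and E2f5 (0.49 ± 0.64), none passed. Against secretory-like cells, 35 of 44 axoneme genes, 15 of 29 transport genes and 6 of 16 regulators were higher, beside 5.73% of all genes.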

How the data were processed

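Lung cells of 2 mice were measured, 1 per batch. The deposited tables hold UMI counts per gene and cell; the authors aligned reads to mm10 with Bowtie2 2.2.7 and counted UMIs over exons with Drop-seq tools, without normalization. The genes and lists were chosen with earlier results of these data known. Named genes were Foxj1, the most counted members of each role, and the 3 most counted of each list, plus members with no or only non-ciliated UMIs; other genes were named after their values were seen.

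Cells were scaled within batch and clustered (Leiden, resolution 2, 2000 variable genes, 40 components, 15 neighbours) in Python 3.11.15 with scanpy 1.11.5 and leidenalg 0.10.2. Counts were summed per class and batch, filtered with filterByExpr and tested with edgeR 4.0.16 in R 4.3.3 (TMM, quasi-likelihood, class and batch as factors, adjusted p under 0.05). The comparison of the 2 other airway clusters was added after seeing the data. Standard errors of log2 differences were worked back from the difference and the F value of the test. The test was checked on simulated data without a batch effect, with differences planted only in well-counted genes. That check does not cover differences in low-count genes or the pairing of sums within a mouse. All sums of a batch come from 1 mouse, so batch entered as the replicate block. Deviations of the paired sums correlated with a median of 0.113. Wilson and Poisson intervals and floors cover counting error only. Levels are not scaled by length, because UMIs mark 3′ ends.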

Additional observations from a re-analysis of the deposited data

Results flagged for a closer look

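Batch 2 held 1940 cells over the mitochondrial limit, which entered no comparison, and Batch 1 held 1. Among the 1940, 32 cells held 87 Foxj1 UMIs. By the same markers 32 of the 1940 cells were ciliated-like, and they held 457 motile cilium UMIs (51.5 per 10000 UMIs), 263 transport UMIs (29.6 per 10000) and 61 Foxj1 UMIs in 19 cells. These levels lie beside the 49.8 and 30.1 per 10000 of the kept ciliated-like cells of Batch 2. A further 32 cells were other airway cells and held 19 Foxj1 UMIs. Over all 1940 cells the motile genes took 2.29 and the transport genes 3.82 of every 10000 UMIs. There is no control sample, and these values were flagged because they exceed the limit that a count of 0 allows.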

How the results depend on the processing

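With each setting changed in turn, most motile and transport genes were still called higher in ciliated-like than in remaining cells (24 to 28 motile and 9 to 12 transport genes, and after thinning 14 of 17 and 7 of 11 tested). Of all genes, 3086 were called there, 2041 with the remaining cells pooled to 1 class, 1816 at a mitochondrial limit of 5% and 833 after thinning. Against other airway cells 338 were called, 36 without the replicate block, 42 with pooled remaining cells, 36 after thinning, 0 under a gate on ciliated markers in place of clusters, and, with the clusters apart, 1054 against secretory-like and 95 against mixed cells. Without the replicate block these last were 649 and 20, and by DESeq2 the latter was 186. For other airway against remaining cells 3634 were called, 2411 without the replicate block, 1783 with pooled cells, 1062 with the 49 genes in the clustering, 66 under the gate, 581 after thinning and 965 for secretory-like cells alone. Among the remaining classes 6954 were called and 4567 after thinning. The gate left 1 other airway cell in Batch 1 and 11 in Batch 2. The cause of these changes was not tested.

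Log2 differences from remaining cells turned sign for Dnah8 (-0.21) and Ift52 (-0.17) at 5% mitochondrial UMIs, for Ift52 (-6.83), Cep63 (-0.21) and E2f5 (-5.91) after thinning, and for E2f4 under the gate (0.024); none of these had passed the test. Leaving out 1 mouse gave -2.78 to 4.68 for Dnah10 and -4.09 to 0.45 for E2f4.

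Per 10000 UMIs, ciliated-like cells held 42.0 motile UMIs at the 5% limit, and other airway cells 15.6 motile and 11.2 transport UMIs without a limit. With the 49 genes and the 3 lists in the clustering the values were 31.8 and 21.4 in ciliated-like and 1.30 and 2.50 in other airway cells. Under the gate they were 10.6 and 9.24 in cells that passed and 0.968 and 1.94 in other airway cells. Among the cells that passed, 251 were alveolar, 54 mixed, 38 ciliated-like, 34 unnamed and 29 secretory-like. The other airway values come from 1 cell in Batch 1 and 11 in Batch 2. After thinning, other airway cells held 11.3 motile and 13.8 transport UMIs and ciliated-like cells 25.9 transport UMIs. Foxj1 was found in 62.2% of thinned ciliated-like and 11.2% of thinned other airway cells, and at least 2 UMIs in 89.5% of ciliated-like and 0% of endothelial cells. Depth limits the classes of Batch 1, of which the secretory-like class held 10028 UMIs.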
